A study of Mus musculus with 6 samples.

Results

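The genes described here are 28 genes of cholesterol synthesis, uptake and export, of 26264 gene symbols counted in each library. They were chosen by symbol and comprise 7 genes of the mevalonate segment, 11 genes of the squalene and sterol segment, 4 genes of SREBP regulation, 4 genes of sterol transport and esterification and 2 export genes. All 28 were found in all 6 libraries. No lipoprotein receptor is among them, and receptors are given with the other pathway genes.

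Bulk RNA sequencing was done on brown preadipocytes of Bl6N wild-type mice, a line made from the stromal vascular fraction of brown fat. All cells carry SV40 large T antigen, which had immortalized them, so the line keeps dividing. Cells were pretreated with 5.5 nM FGF8 for 48 h or left untreated. One library per treatment was taken directly after the pretreatment (day 0), and 1 more on day 3 and on day 9, after the cells had been moved to a medium that induces adipocyte formation. This induction mix, which every cell of day 3 and day 9 had received, held insulin, T3, IBMX, dexamethasone, indomethacin and rosiglitazone, a ligand of PPARγ. The last time point is labelled D7. It was read as 7 days on differentiation medium and, with the 2 days of induction, taken as day 9. The label D3 was taken as day 3 with the induction included. No condition had a replicate.

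Cholesterol is built from acetyl-CoA. The mevalonate segment makes farnesyl diphosphate, and the squalene and sterol segment turns it into lanosterol and then cholesterol. The enzyme genes are driven by SREBP2, a transcription factor held in the endoplasmic reticulum by SCAP and the INSIG proteins while sterols are plentiful and released when sterols fall. SREBP2 binds sterol regulatory elements, usually with help from NF-Y at CCAAT boxes. Excess cholesterol is stored as ester by the SOAT enzymes or exported by ABCA1 and ABCG1, whose genes are targets of the sterol-sensing LXR receptors.

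Promoter sequences are shown for 5 genes because the results below set the enzyme genes beside the storage and export genes. The 250 bases before the main transcript start of each gene were read on GRCm39 with GENCODE M39 starts, and windows of 120 bases are printed 5′ to 3′ on the gene's strand. Capitals mark matches to the core of the sterol regulatory element (TCACNCCA) and to the NF-Y box (CCAAT, or ATTGG on the other strand).
Hmgcs1 promoter, chr13:120151732-120151851 (+): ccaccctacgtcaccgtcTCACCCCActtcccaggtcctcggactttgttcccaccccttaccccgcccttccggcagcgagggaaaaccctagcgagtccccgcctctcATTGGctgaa
Srebf2 promoter, chr15:82031252-82031371 (+): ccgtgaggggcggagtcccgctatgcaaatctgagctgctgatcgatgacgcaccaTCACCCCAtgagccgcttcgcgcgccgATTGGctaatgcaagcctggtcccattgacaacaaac
Fdps promoter, chr3:89009336-89009455 (-): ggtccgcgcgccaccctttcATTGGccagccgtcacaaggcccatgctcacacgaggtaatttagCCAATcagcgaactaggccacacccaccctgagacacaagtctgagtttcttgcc
Abca1 promoter, chr4:53159901-53160020 (-): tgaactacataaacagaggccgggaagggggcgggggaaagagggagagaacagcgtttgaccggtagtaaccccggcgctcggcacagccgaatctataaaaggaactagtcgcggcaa
Soat2 promoter, chr15:102058677-102058796 (+): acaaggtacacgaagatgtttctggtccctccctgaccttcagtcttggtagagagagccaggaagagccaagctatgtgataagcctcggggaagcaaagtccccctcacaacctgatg
The windows of Hmgcs1 and Srebf2 overlap exons of noncoding RNAs on the other strand, and none of the 5 overlaps an exon of its own gene. In Hmgcs1 the element began 232 bases before the start, and in Srebf2 it began 74 bases before it. These 2 were the members whose 250 bases held TCACNCCA on either strand, which is 7.14% of 28 members, beside 3.55% of 19073 protein-coding promoters. CCAAT was in 18 of 28 members (64.3%) and in 35.9% of all promoters, and the GC box GGGCGG was in 18 of 28 (64.3%) and in 39.9% of all. A TCACNCCA match followed by AT would also hold CCAAT, which neither of these 2 does. The windows printed for Abca1 and Soat2 hold neither of the 2 marked motifs. The other SOAT gene, Soat1, and the other export gene, Abcg1, do hold CCAAT in their 250 bases. The enzyme genes Pmvk, Mvd, Cyp51, Dhcr7 and Acat2 do not. The printed windows therefore do not separate enzyme genes from storage and export genes. A match is a description of letters and no evidence of binding.

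The libraries held 16403254 to 38551551 counts. The preadipocyte label fitted the day 0 markers: adipocyte genes summed to 589 normalized counts untreated and 466 after FGF8, against 130131 and 29266 for preadipocyte genes. All 5 preadipocyte markers were lower after FGF8 on all 3 days. Brown adipocyte markers summed to 307 untreated and 1411 after FGF8 at day 0, with 2 higher and 1 lower. The untreated sum was mostly Dio2 (304.1, and 60.17 after FGF8), and the FGF8 sum was mostly Ucp1 (0 and 1328). On day 3 these markers summed to 2745 and 9365 with all 4 higher, and on day 9 to 121059 and 142128 with 2 of 4 higher. All 5 adipocyte markers were higher after FGF8 on day 3 (summed 409143 against 210696) and on day 9 (411147 against 356726). At least 5 of 6 proliferation markers were higher after FGF8 on each day, with sums of 58722 against 50532 on day 0. Macrophage markers summed to between 43.53 and 152.6, with Adgre1 at 0 in all 6 libraries and Ptprc at 1 count in 1 library and 0 in the others. Endothelial markers summed to 1620 in untreated cells at day 0, mostly from Kdr, and to 71.69 after FGF8. The part of these markers in the results below was not tested. In bulk samples fewer cells of a type and less RNA per cell cannot be told apart.

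The first comparison asked how FGF8 pretreatment left the cholesterol genes, day by day. Directly after FGF8, all 17 synthesis enzyme genes that could be compared had lower counts than in untreated cells, with a median log2 fold change of -0.78. Of the enzymes, 5 were at least 2-fold lower and none was 2-fold higher. The export gene Abca1 was 4.12-fold lower. The esterification gene Soat2 was higher after FGF8, with 152 raw counts against 7. The members' median log2 fold change was 0.14 by day 3 and 0.06 by day 9.

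These values are differences of log2(normalized count + 1) between 1 FGF8 and 1 untreated library, and there is no test between them. Folds given as such are plain ratios of the normalized counts. A gene was compared where the mean over its pair of libraries reached 20 normalized counts. The intervals given are 95% exact Clopper-Pearson intervals of the ratio of the 2 counts, and they cover counting error only. At day 0, 27 of 28 members could be compared: 6 were at least 2-fold lower (background 10.8% of 12657 genes) and 1 was at least 2-fold higher (background 7.27%). Of the 27, 21 had a log2 fold change below 0, with a median of -0.58. Over all genes 45.9% lay below 0 and the median was 0.05. The interval lay below 0 for 16 of the 17 enzymes and for 19 of all 27 members, beside 32.6% of all genes. The exception among the enzymes was Fdft1. The nearest member inside the 2-fold limit was Mvd at -1.03, and the nearest outside it was Ebp, whose difference rounds to -1.0.

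**Figure D1:**
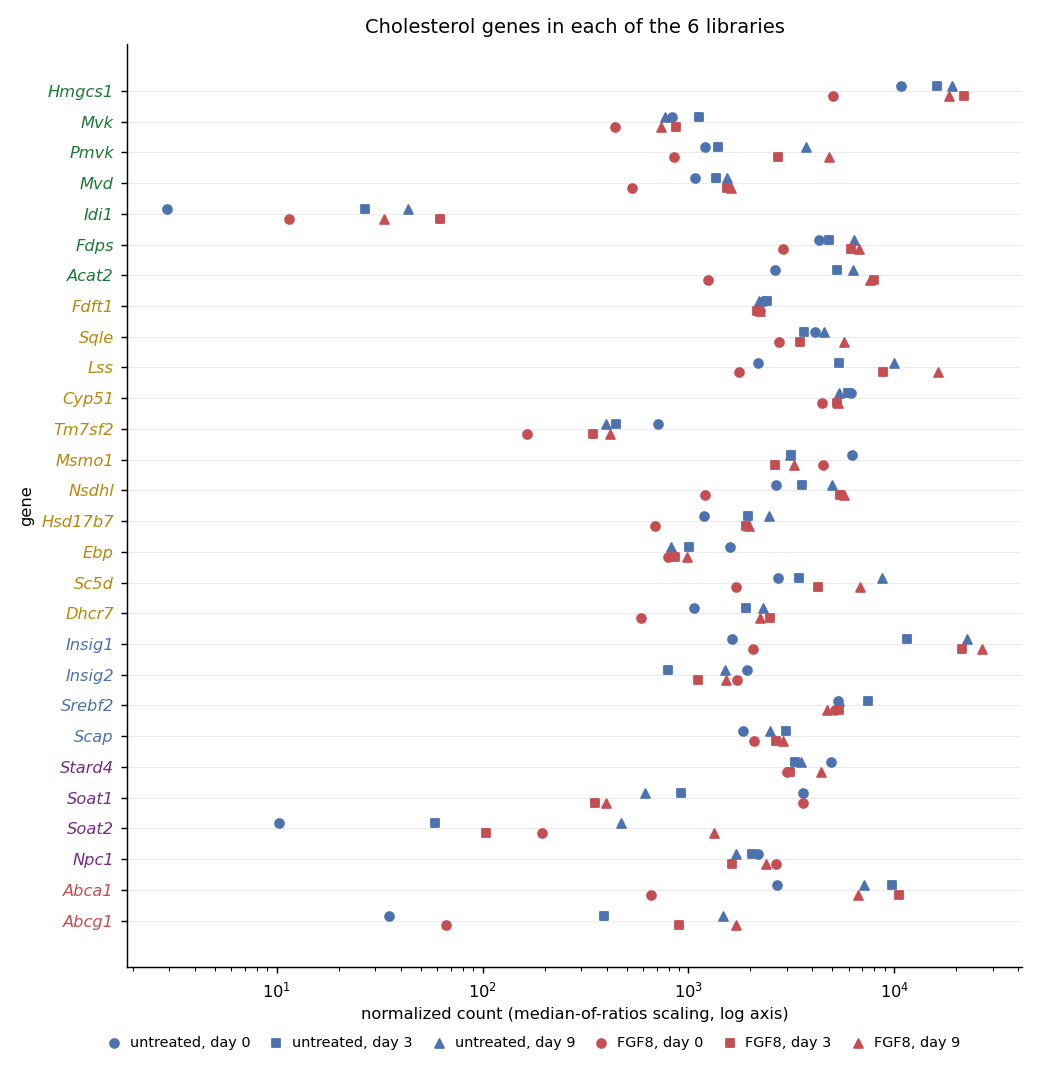
Normalized counts of the 28 genes (rows) in the 6 libraries, on a log axis. Blue marks untreated and red FGF8 libraries, circles day 0, squares day 3 and triangles day 9, and name colours mark the roles from mevalonate genes at the top to export genes at the bottom. The red circle, FGF8 at day 0, lies left of the blue circle for 17 of the 18 enzyme genes, and Idi1, the exception, has few counts.

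In the mevalonate segment, Hmgcs1, which makes HMG-CoA, the substrate of the pathway's rate-limiting step, had 10808 normalized counts in untreated cells and 5059 after FGF8 at day 0, and all pairs of values below give the untreated library first. On day 3 it had 16118 and 21807, and on day 9 it had 19146 and 18385. The FGF8 library was 2.14-fold lower at day 0 (log2 fold change -1.09, interval -1.15 to -1.04), 1.35-fold higher on day 3 and 1.04-fold lower on day 9. Acat2, the cytosolic thiolase that joins the first acetyl units, had 2638 and 1246 normalized counts at day 0, 5258 and 7942 on day 3, and 6295 and 7609 on day 9. It was thus 2.12-fold lower at day 0 and 1.51-fold higher on day 3. Acat2 shares 97.698% of 1477 aligned bases with Acat3, so its reads are partly uncertain, but Acat3 had at most 94.74 normalized counts in any library.

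Mvd, which decarboxylates mevalonate diphosphate, had 1080 and 530 normalized counts at day 0 and 1547 and 1606 on day 9. Pmvk, phosphomevalonate kinase, moved in another order: 1203 and 846.2 at day 0, 1399 and 2737 on day 3, and 3719 and 4790 on day 9. It was lower after FGF8 at day 0 (-0.51) and 1.96-fold higher on day 3. Mvk and Fdps, the mevalonate kinase and the farnesyl diphosphate synthase, were lower at day 0, with differences of -0.92 and -0.58.

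Idi1, isopentenyl diphosphate isomerase, cannot be read with the same trust. It had raw counts of 2 and 9 at day 0, 21 and 88 on day 3, and 61 and 41 on day 9, and its day 0 mean was under the limit of 20. A processed pseudogene, Idi1-ps1, is identical to it over 684 aligned bases and held more counts than Idi1 in every library, with 247 and 145 at day 0, 292 and 1267 on day 3, and 962 and 1045 on day 9. Reads of Idi1 may therefore be counted there. Idi1 was 2.31-fold higher after FGF8 on day 3, and Idi1-ps1 stood 1.26 higher on the log2 scale on that day. On the other days they went opposite ways. Idi1-ps1 differed by -0.96 at day 0 and by 0.31 on day 9, and Idi1 by 1.67 and -0.37.

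In the squalene and sterol segment, Tm7sf2 (chr19:6112851-6118403, GRCm39), a sterol reductase, was the most strongly lower enzyme gene at day 0. Its normalized counts were 710.9 and 163.9 at day 0, 445.5 and 345.4 on day 3, and 397.5 and 417.9 on day 9. The day 0 difference was -2.11 (interval -2.41 to -1.83), 4.34-fold lower after FGF8. Tm7sf2 shares 532 exonic bases on the same strand with Vps51, which differed by 0.04 at day 0. Nsdhl, which takes part in removing the methyl groups of lanosterol, had 2656 and 1198 at day 0, 3571 and 5423 on day 3, and 4985 and 5683 on day 9. It was 2.22-fold lower at day 0 and 1.52-fold higher on day 3.

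Ebp, the sterol isomerase, had 1594 and 797.6 normalized counts at day 0 and 821.3 and 985.3 on day 9. Dhcr7, which catalyses the last reduction of one branch, had a day 0 difference of -0.85, Hsd17b7 one of -0.78 and Sc5d one of -0.67. Sqle, squalene epoxidase, had -0.59, and Cyp51 and Msmo1, which act on the methyl groups of lanosterol, both had -0.47. The differences nearest to 0 were in Lss, the cyclase that makes lanosterol (-0.29), and Fdft1, squalene synthase (-0.07). Fdft1 had 2337 and 2228 normalized counts at day 0 and between 2151 and 2395 in the other libraries, the narrowest range of the enzymes. It shares exonic bases with Ctsb on the opposite strand, and the strand setting of the counting is not given in the sources used here, so its reads and those of Ctsb may not be told apart. Cyp51 overlaps Akap9, Sqle overlaps Washc5, Nsdhl overlaps Cetn2, Npc1 overlaps Rmc1 and Acat2 overlaps Tcp1 in the same way. Fdps and Fdft1 also have processed pseudogenes of similar sequence in the annotation.

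Lss was higher after FGF8 on both later days. Its normalized counts were 2165 and 1765 at day 0, 5387 and 8821 on day 3, and 9928 and 16364 on day 9. It was 1.64-fold higher after FGF8 on day 3 and 1.65-fold higher on day 9. At day 9 no other enzyme gene differed by as much in either direction.

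**Figure D2:**
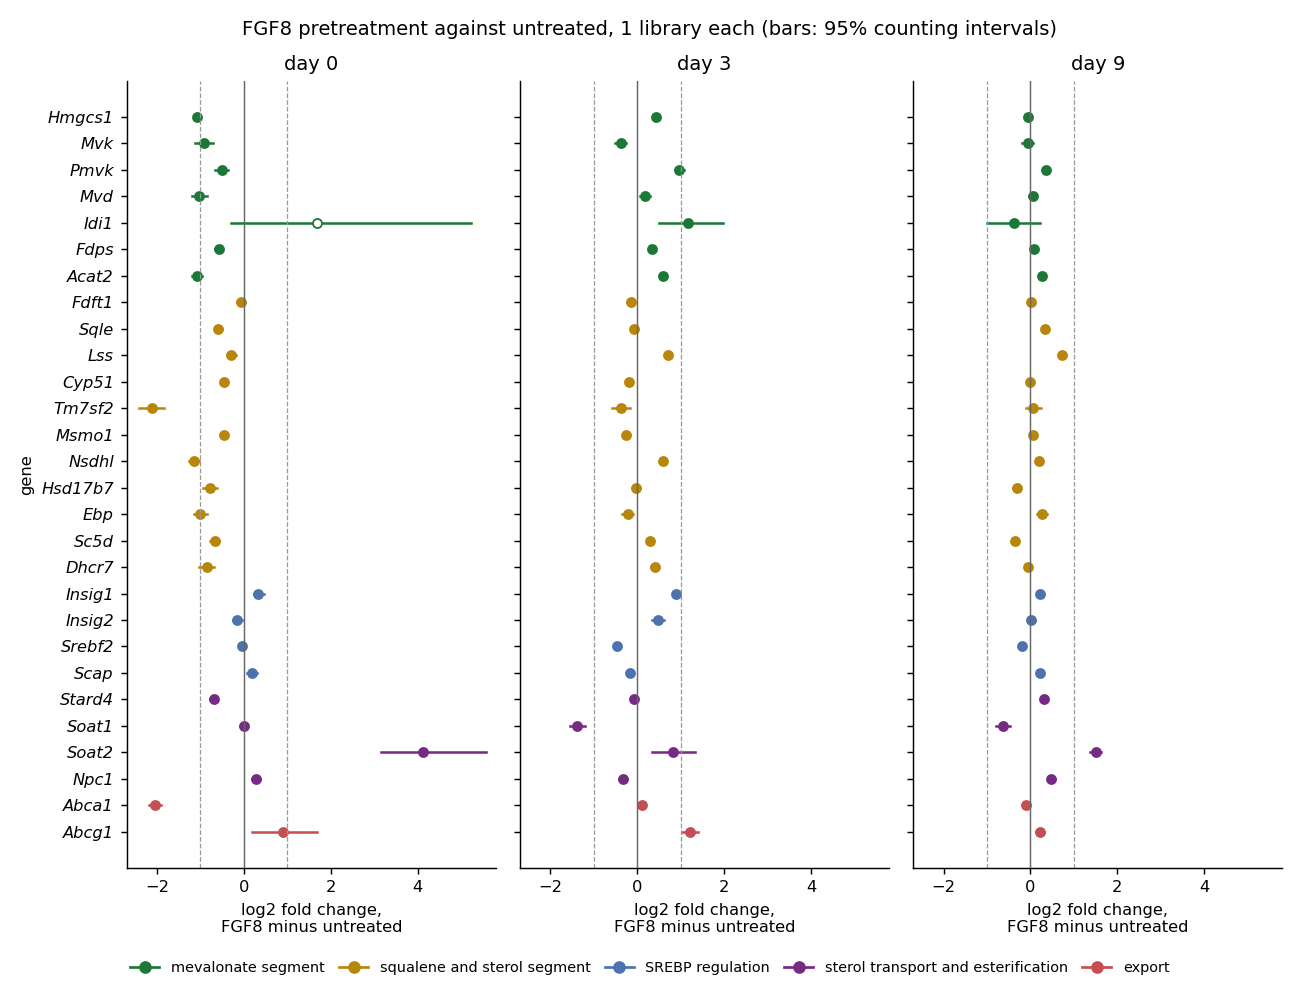
Log2 fold change of FGF8 over untreated for each gene (rows) at day 0, 3 and 9, with 95% counting intervals as bars and 2-fold limits dashed. The open point, Idi1 at day 0, was under the count limit. At day 0 the 17 enzyme genes compared lie to the left of 0 from -2.11 to -0.07, while on day 9 no member was 2-fold lower.

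The genes that regulate SREBP did not follow the enzymes at day 0. Srebf2, which encodes SREBP2, had 5314 and 5144 normalized counts at day 0 (-0.05, interval -0.11 to 0.02), 7437 and 5368 on day 3, and 5413 and 4705 on day 9. Insig1 (chr5:28276315-28283668, GRCm39), which retains SCAP and is itself a target of SREBP, had 1632 and 2057 at day 0, 11505 and 21440 on day 3, and 22651 and 26591 on day 9. For Insig1, FGF8 minus untreated was 0.33 at day 0, where the enzyme genes were lower. On day 3 it was 0.90, where 10 of 18 enzyme genes lay above 0 with a median of 0.24. Scap, the sterol sensor, had 0.18 at day 0, and Insig2 had -0.15 at day 0 and 0.49 on day 3. The median of the 4 genes at day 0 was 0.07.

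Of the storage and transport genes, Soat2 (chr15:102058797-102071904, GRCm39) had the largest difference. It encodes a cholesterol esterifying enzyme whose protein is also known as ACAT2, and it is not the gene Acat2 above. It had raw counts of 7 and 152 at day 0, 46 and 148 on day 3, and 665 and 1645 on day 9, and normalized counts of 10.28 and 194.6, 58.55 and 103.9, and 472 and 1337. The day 0 log2 fold change of 4.12 has a wide interval (3.16 to 5.58). Soat2 reached the count limit at day 0 through the FGF8 library alone, so it could be counted there only as higher. At day 3 it was 0.82 (0.34 to 1.34) and on day 9 it was 1.5 (1.37 to 1.63), so Soat2 was higher after FGF8 on all 3 days. Soat2 shares 95.455% of 176 aligned bases with Atg13 and 95.349% of 172 with Afap1. Other transcripts have similar stretches, so some of its reads may be uncertain.

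Soat1, the other esterifying enzyme and the more widely expressed one, showed no difference at day 0, with 3593 and 3599 normalized counts. It had 918.9 and 353.1 on day 3 and 612.6 and 395.9 on day 9, 2.6-fold lower (-1.38) and 1.55-fold lower (-0.63) after FGF8. Both libraries of day 0 lay above all 4 later ones. At days 3 and 9 Soat1 was thus lower and Soat2 higher in the FGF8 library. Stard4, which carries cholesterol through the cytosol, differed by -0.70 on day 0 and by 0.32 on day 9. Npc1, which moves cholesterol taken up by endocytosis out of lysosomes, had 2186 and 2654 normalized counts at day 0, 2041 and 1630 on day 3, and 1702 and 2377 on day 9.

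The 2 export genes differed from each other. Abca1 (chr4:53030787-53159900, GRCm39), which loads cholesterol onto apolipoproteins, had 2706 and 656.8 normalized counts at day 0 (-2.04, interval -2.19 to -1.9), 9771 and 10527 on day 3, and 7162 and 6676 on day 9. Its 2 lowest libraries were those of day 0. Abcg1, which exports sterol to lipoprotein particles, had 35.25 and 66.57 at day 0 (0.90, interval 0.19 to 1.68), 386.9 and 899.9 on day 3 (1.22, interval 1.04 to 1.4) and 1464 and 1702 on day 9 (0.22, interval 0.13 to 0.31). Of the 2 genes, only Abcg1 was 2-fold higher on a day, day 3.

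At day 3, 2 of 28 members, Idi1 and Abcg1, were at least 2-fold higher (background 3.8% of 12892 genes) and 1, Soat1, was at least 2-fold lower (background 12.1%). The median over all genes was 0.08. Of the 28, 15 lay above 0 and 13 below, and 55.5% of all genes lay above 0. In the mevalonate segment 6 of 7 genes lay above 0 with a median of 0.44, and in the squalene and sterol segment 4 of 11 did with a median of -0.07. At day 9, 1 of 28, Soat2, was 2-fold higher (background 1.12% of 13070 genes) and 0 were 2-fold lower (background 8.74%). The members' median was 0.06 beside 0.08 for all genes. These counts are small.

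The 18 enzyme genes together took 0.215% of all counts in untreated cells at day 0 (Wilson interval 0.213 to 0.217) and 0.138% after FGF8 (0.136 to 0.139). The share was 0.254% and 0.295% on day 3, and 0.302% and 0.324% on day 9, untreated first. It was lowest in the FGF8 library of day 0, and it was higher after FGF8 than in untreated cells on both later days. Without Lss, a choice made after seeing the data, the share was 0.206% and 0.130% at day 0, 0.232% and 0.262% on day 3, and 0.266% in both libraries of day 9.

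**Figure D3:**
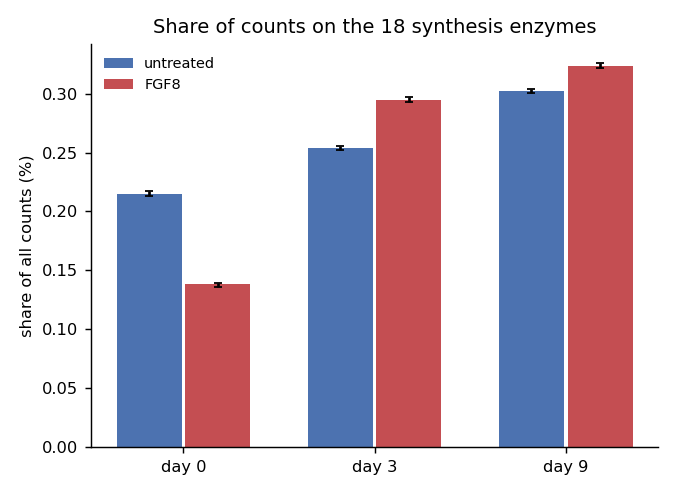
Share of all counts that fell on the 18 synthesis enzyme genes, in percent, by day, for untreated (blue) and FGF8 (red) libraries, with Wilson intervals for counting error. The share was 0.138% after FGF8 at day 0 and between 0.215% and 0.324% in the other 5 libraries.

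An effect of FGF8 common to the 3 days was fitted over the 6 libraries with day as a block, with 2 residual degrees of freedom. Of the 28 members, 0 passed in the quasi-likelihood test of edgeR with Benjamini-Hochberg adjustment, beside 1.1% of 13868 genes. At an unadjusted p under 0.05, 2 passed (background 23.6%): Soat2 (log2 fold change 1.88, SE 0.632, edgeR adjusted p = 0.176) and Abcg1 (0.73, SE 0.233, edgeR adjusted p = 0.166). DESeq2's Wald test called 1 member, Soat2 (2.02, adjusted p = 0.00833), and 12.3% of 13787 genes. The adjusted p of Soat2 ranged from 0.00833 to 1.0 over the alternatives, and that of Abcg1 from 0.08 to 1.0. The enzyme genes had a median of -0.22. The members' median was -0.16 and changed sign to 0.09 without day 0. Fitted on days 3 and 9 alone, 4 members passed in edgeR: Soat1 (-1.03, adjusted p = 0.0227), Soat2 (1.22, adjusted p = 0.0139), Lss (0.69, adjusted p = 0.0428) and Pmvk (0.64, adjusted p = 0.0438). That fit called 15.5% of 14367 genes, so 4 of 28 is near the background. In that fit the 2 days stand as the replicates of each treatment.

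The second comparison asked how the genes moved as preadipocytes became adipocytes, with both treatments fitted together. From day 0 to day 9, 14 of 28 members rose (background 29.2% of 13868 genes) and 2 fell (background 24.6%) in edgeR with Benjamini-Hochberg adjustment, and the members' median log2 fold change was 0.97 beside 0.04 for all genes. The genes with the highest rises were the export gene Abcg1 and the SREBP regulator Insig1, while Soat1 fell most. Of the 18 synthesis enzymes, 10 rose and 1 fell. From day 0 to day 3, 10 members rose (background 26.4%) and 3 fell (background 19.5%), of which 7 and 1 were enzymes. Without the day 9 libraries 6 of 28 members passed, all among these 13 (background 28.3% of 13743 genes, either direction). Without the treatment block 10 of 28 passed for day 9, all among the 16 (background 39% of 13868). Neither count was above its background share.

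Abcg1 stood 3.65 above day 0 on day 3 and 5.05 above it on day 9, on the log2 scale (SE 0.313 and 0.328, edgeR adjusted p = 0.00359 and 0.00188). Insig1 had 3.15 and 3.77 (SE 0.258 and 0.265, edgeR adjusted p = 0.0035 and 0.00196). Abca1 had 2.85 and 2.26 (SE 0.601 and 0.587, edgeR adjusted p = 0.019 and 0.028). Per kilobase of exon, Insig1 was the highest of the 28 genes on day 9, with 4640 normalized counts per kb untreated and 5447 after FGF8, while Hmgcs1 was the highest at day 0, with 2052 and 960.4.

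Among the enzymes, Lss rose most on day 9 (2.70, SE 0.329, edgeR adjusted p = 0.00428), followed by Idi1 (2.53), which has the limits given above, and Pmvk (2.04). Acat2, Sc5d, Nsdhl, Dhcr7, Hmgcs1, Hsd17b7 and Fdps rose by 1.88, 1.85, 1.52, 1.5, 1.3, 1.29 and 0.89 on the log2 scale. Msmo1 was the enzyme that fell, by 0.71 (SE 0.191, edgeR adjusted p = 0.0309). Fdft1, Cyp51 and Srebf2 stood at -0.02, 0.05 and -0.03 and did not pass, and Mvd missed the limit with 1.04 (edgeR adjusted p = 0.0505). The rise was thus not shared by every step of the pathway.

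Soat1 fell by 2.89 (SE 0.375, edgeR adjusted p = 0.00481), and Soat2 rose by 3.60 (SE 0.786, edgeR adjusted p = 0.0173) from day 0 to day 9. Soat2 had not passed on day 3. Between day 3 and day 9, 0 of 28 members passed in edgeR (background 0.0649% of 13868 genes), with 7 at an unadjusted p under 0.05 (background 21.4%). DESeq2's Wald test called 3, Sc5d, Soat2 and Abcg1, and 9.07% of 14543 genes.

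**Figure D4:**
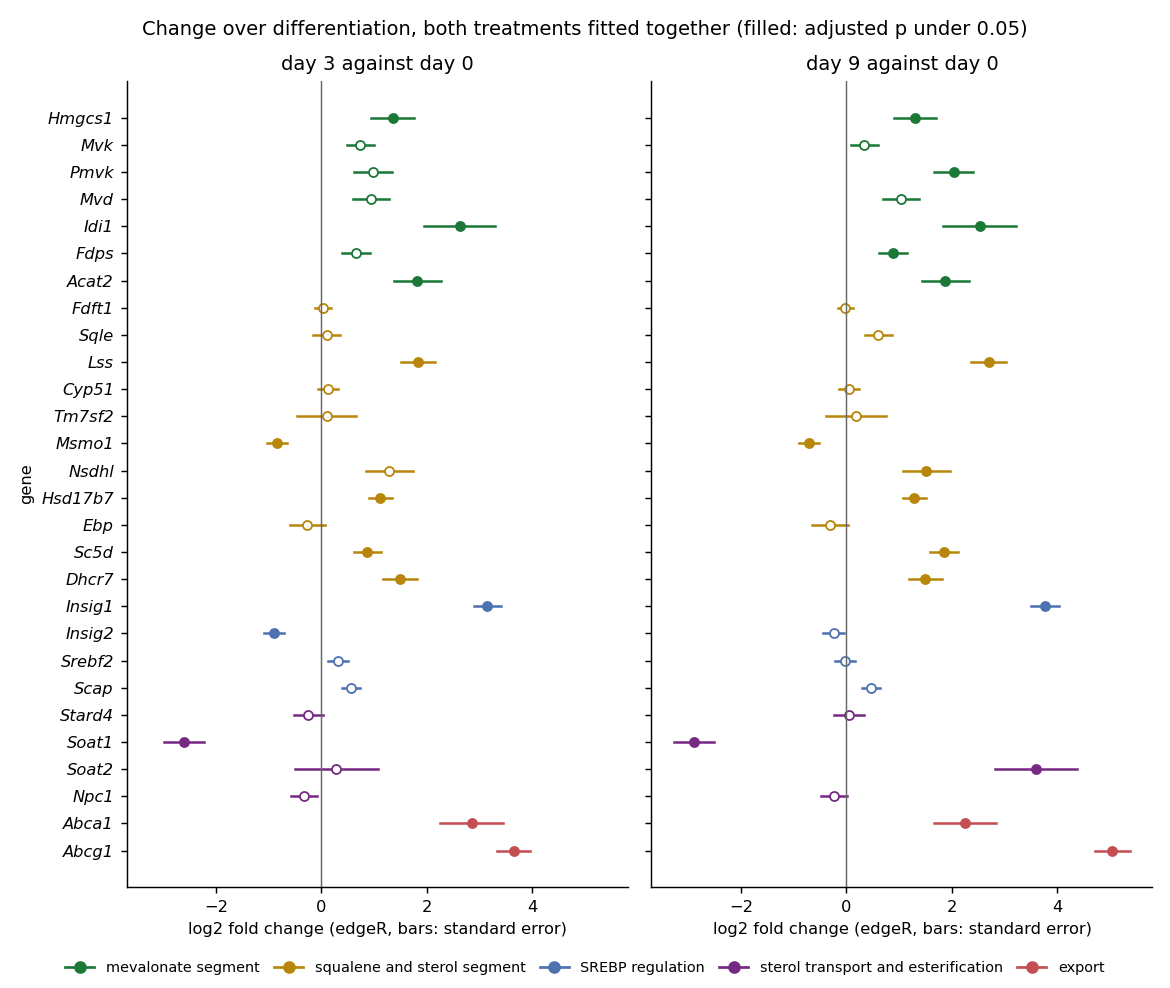
Log2 fold change of each gene (rows) on day 3 and day 9 against day 0, fitted over both treatments, with standard errors as bars and filled points for an adjusted p under 0.05 in edgeR. Abcg1 (5.05) and Insig1 (3.77) lie farthest right on day 9, and Soat1 (-2.89) farthest left.

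The changes from day 0 differed in size between the treatments for several genes. Hmgcs1 changed by 0.82 in untreated cells from day 0 to day 9 and by 1.86 in FGF8 cells. Abca1 changed by 1.4 and 3.34, and Tm7sf2 by -0.84 and 1.35, so the latter moved in opposite directions. Soat2 changed by 5.39 and 2.77, with the larger change in untreated cells. That larger change rests on 7 raw counts at day 0 (interval 4.47 to 6.84). These contrasts have 1 library at each end and were not tested. They follow from the day 0 and day 9 differences given above and are no further result. Insig1 (3.79 and 3.69) and Soat1 (-2.55 and -3.18) were more alike.

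**Figure D5:**
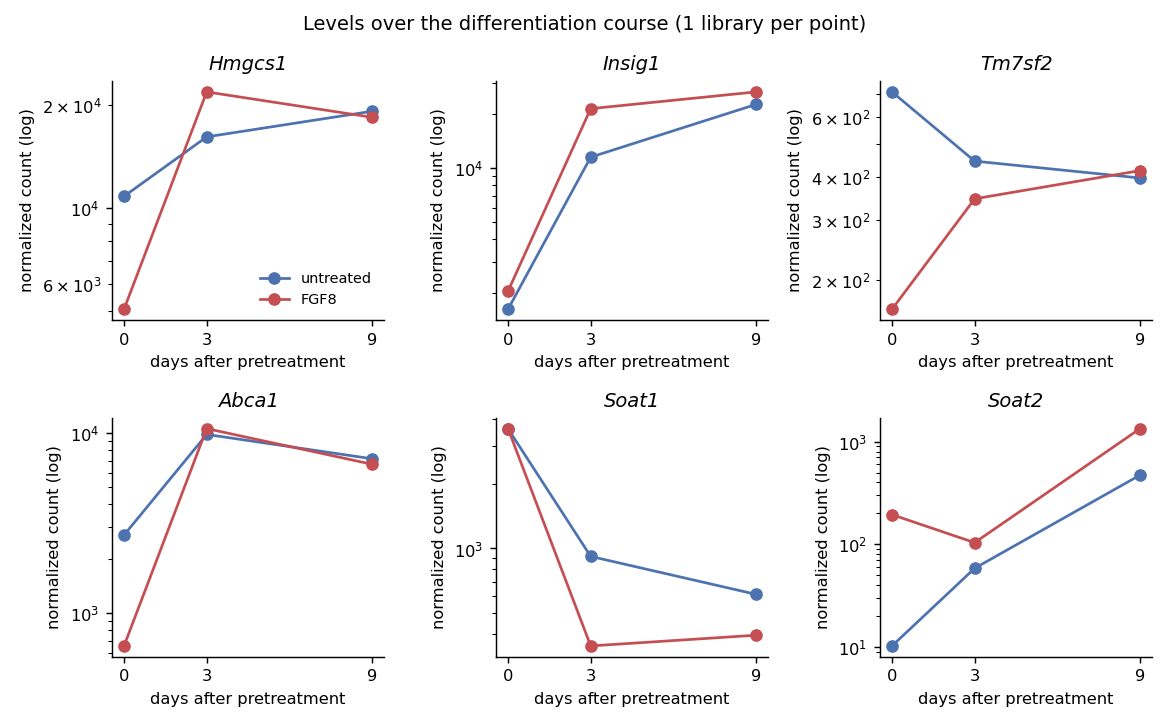
Normalized counts (log axis, which differs between panels and does not start at 0) of 6 genes over days 0, 3 and 9 for untreated (blue) and FGF8 (red) cells, 1 library per point. Hmgcs1, Tm7sf2 and Abca1 start lower after FGF8. On day 9 they lie near the untreated course, with 18385 against 19146, 417.9 against 397.5 and 6676 against 7162. On day 3 Hmgcs1 (21807 against 16118) and Abca1 (10527 against 9771) lie above it, and Tm7sf2 (345.4 against 445.5) below it. Soat2 stays higher throughout.

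Of 16 other genes of the pathway, 2 were at least 2-fold higher (background 7.27%) and 1 at least 2-fold lower (background 10.8%) after FGF8 at day 0. The list went both ways, with 8 genes above and 8 below 0 and a median of 0.01. The lower one was Mylip, the ligase that degrades lipoprotein receptors (-1.10 on day 0, -0.57 on day 3 and -0.76 on day 9). The higher ones were Vldlr, a lipoprotein receptor (1.63, 0.59 and 0.52), and Ch25h, an oxysterol-making enzyme with few counts. Ch25h had 19.1 and 137 normalized counts at day 0, 50.91 and 7.721 on day 3, and 66.72 and 12.19 on day 9. Its difference was 2.78 at first and then -2.57 and -2.36. Ch25h reached the count limit at day 0 through the FGF8 library alone, so it could be counted there only as higher. On day 3 and day 9 it reached the limit through the untreated library alone, so it could be counted there only as lower. The receptor Lrp1 had -0.07, -1.80 and -1.26 on the 3 days, and Scarb1, which binds high-density lipoprotein, had -0.60, 0.40 and -0.09. Npc2, which hands cholesterol to NPC1 in lysosomes, had -0.89, -0.86 and -1.10, lower after FGF8 on all 3 days. In all, 0 of the 16 were 2-fold higher (background 3.8%) and 2 were 2-fold lower (background 12.1%) on day 3. On day 9, 0 were 2-fold higher (background 1.12%) and 3 were 2-fold lower (background 8.74%). Between day 0 and day 9, 7 of the 16 rose (background 29.2%) and 2 fell (background 24.6%) in edgeR. Nr1h3, which encodes LXRα, rose by 4.74 (SE 0.187, edgeR adjusted p = 0.00155), with 63.16 and 102.4 normalized counts at day 0 and 1882 and 2400 on day 9. Srebf1, the relative of Srebf2 that drives fatty acid synthesis, rose by 2.67. Cyp27a1, Lipa, Nr1h2, Vldlr and Osbp also rose, and Mbtps1 and Mbtps2, the proteases that release SREBP, fell by 1.46 and 1.49.

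The CCAAT box was found among members on either side of the 2-fold limit at day 0. Of the 6 members at least 2-fold lower, 3 had it in the 250 bases, and of the 21 other members compared, 14 did. The share was 64.3% over all 28 members and 35.9% over all promoters. Among the 17 enzymes compared, the 12 with a box had a median log2 fold change of -0.73 and the 5 without it one of -0.85. Hmgcs1, with the sterol regulatory element and the box, was 2-fold lower, and Srebf2, with both, stood at -0.05.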

How the data were processed

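The authors trimmed the reads with Trim Galore, aligned them to GRCm39 (mm39) with HISAT2 and deposited raw counts per gene for each library, without normalization. Tool versions, the annotation and the strand setting of the counting are not given in the sources used here. The labels' growth protocol describes white preadipocytes, whereas titles and cell type give brown preadipocytes, which were followed. The labels call the control untreated.

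Size factors by the median of ratios (DESeq2 1.42.0) scaled the counts. Day-wise differences are log2(normalized count + 1), FGF8 minus untreated, over genes with a mean of at least 20 in the pair, and a member counts as higher or lower at 2-fold. Common effects were fitted by edgeR 4.0.16 (TMM, filterByExpr, quasi-likelihood, Benjamini-Hochberg, adjusted p under 0.05), with day or treatment as the block. The days or treatments stand in for replicates there, so the p-values carry only the spread left between 6 single libraries. Both steps were run on simulated data with 200 changed genes. The simulated FGF8 effect of the fit was the same on every day, so this check does not cover effects that differ between days. The precision of single values is that of 16403254 to 38551551 counts per library, and intervals cover counting error only. R 4.3.3, Python 3.11.15, pandas 2.3.3, scipy 1.17.1 and blastn 2.17.0 were used.

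The members and the gene lists, as well as the rule for members with every library's value (the 5 largest FGF8 differences of each day, the 5 largest changes of untreated cells from day 0 to day 9, and at least 1 of each role), were chosen with earlier results of these data known. Alternatives were TMM, total counts, size factors within a pair, pseudocounts of 0.5 and 5, a minimum mean of 100, no filter, fold rules of 1.5 and 4, RLE, no block, DESeq2 and leaving out each day. Of 26264 symbols, 23897 (91.0%) were found in GENCODE M39. The motifs were chosen after sequences had been seen. Genes on mouse chromosome 18 have no printed sequence.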

Additional observations from a re-analysis of the deposited data

Results flagged for a closer look

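Nsdhl and Acat2 differed after FGF8 in opposite directions on day 0 and day 3. On the log2 scale, FGF8 minus untreated was -1.15 for Nsdhl on day 0 and 0.60 on day 3. For Acat2 it was -1.08 on day 0 and 0.60 on day 3. Each value was past 1.5-fold with a counting interval that excluded 0. The day 3 values fell short of 1.5-fold with TMM (0.57 for Nsdhl and 0.56 for Acat2), with size factors within the pair (0.56 and 0.55) and with total counts (0.5 and 0.49), and kept their sign. The difference between the days was not tested, because each day had 1 library per treatment.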

How the results depend on the processing

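Of the summary results under the alternatives, 56 kept their direction and side of the threshold (counts within 1.5 times). Of the others, 7 came out stronger, 5 came out weaker and 2 medians moved. With 1.5-fold in place of 2-fold, 15 members passed on day 0, 9 on day 3 and 3 on day 9, in place of 7, 3 and 1. Of these, 2 were higher and 13 lower on day 0, 8 and 1 on day 3, and 2 and 1 on day 9. All genes past 1.5-fold were 16.9% higher and 17.8% lower on day 0, 15.6% and 19.8% on day 3, and 5.95% and 14.4% on day 9. With 4-fold, 3 passed on day 0, 1 higher and 2 lower (1.98% and 4.42% of all genes). On day 3, 0 passed (0.264% and 2.08% of all genes), and on day 9, 0 passed (0.0689% and 2.71%). The day 3 median of 0.14 was 0.04 with total counts and 0.04 at a mean of at least 100. Total counts moved the median of all genes to 0.11 on day 0 and to -0.03 on day 3, and the members' day 0 median relative to it was -0.64. For the common FGF8 effect, 4 members passed without day 0 (15.5% of all genes) and 1 with DESeq2 (12.3%), in place of 0. From day 0 to day 3, 6 of 13 calls were kept without day 9. From day 0 to day 9, 10 of 16 calls were kept without the treatment block. From day 3 to day 9, 6 passed without day 0 (21.2% of all genes) and 3 with DESeq2 (9.07%), in place of 0. The cause was not tested. No called member changed sign, but 23 fitted values of uncalled members did. For the FGF8 effect without day 0 these were Hmgcs1 (0.16), Mvd (0.09), Fdps (0.19), Sqle (0.11), Nsdhl (0.37), Dhcr7 (0.15), Acat2 (0.41) and Stard4 (0.1). Without the day block they were Fdps (0.01), Nsdhl (0.11) and Acat2 (0.22), without day 3 Pmvk (-0.11) and Insig2 (-0.11), and without day 9 Npc1 (-0.04). For day 3 against day 0 they were Fdft1 with RLE (-0.02) and DESeq2 (-0.01), and Tm7sf2 (-0.11) and Soat2 (-0.29) without the treatment block. For day 9 against day 0 they were Fdft1 (0.03) and Srebf2 (0.01) with no filter, Fdft1 (0.02) and Srebf2 (0.01) without day 3, and Tm7sf2 (-0.09) without the treatment block. Beyond the block by day, which sets the libraries of 1 day against each other, no replicate numbers are given. No further pairing was possible because each condition is 1 library. The absence of replicates, and few counts for Idi1 and for Soat2 at day 0, limit what can be said.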
